A study of Mus musculus with 8 samples.

Results

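The collagen and laminin genes of whole mouse lung at embryonic day 18.5 were compared between Snx5-/- and Snx5+/+ embryos, before and after an air-breathing test. Members were genes that the array's probe annotation names as a collagen chain or a laminin chain. This gave 43 genes of 16593 named genes, 35 collagens and 8 laminins, measured by 65 probes. Each gene was represented by the probe with the highest mean over all arrays, and values are log2 intensities. Of the members, 11 were fibrillar collagens and 12 were basement membrane genes, namely 4 type IV collagen chains and the 8 laminin chains. The remaining 20 belonged to other collagen classes. Laminin α5 (Lama5) carries no probe in this annotation and was not analysed here.

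The 8 arrays fell into 4 groups of 2, which were Snx5-/- lungs without the air test (non-air), Snx5+/+ non-air lungs, Snx5-/- lungs taken after the air test (air) and Snx5+/+ air lungs. All were labelled as C57BL/6 strain. The mutant allele is a gene trap from 1 embryonic stem cell line, in which a β-geo cassette sits in an intron of Snx5, a sorting nexin of endosomal trafficking. Every cell of the mutant carries it, and the embryos tested in air were delivered by caesarean section. The description field of the non-air mutant samples names wild type, against their titles and genotype fields. The 2 deposited tables also disagree on the air state, since the signal of each array in the intensity table corresponds to an array of the opposite air state in the log2 table, with genotype and replicate unchanged. The log2 table was followed. The genotype difference averaged over the 2 states is the same either way.

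The Snx5 probe read 7.23 and 7.24 on Snx5-/- non-air arrays, 7.88 and 7.85 on Snx5+/+ non-air arrays, 7.29 and 7.10 on Snx5-/- air arrays, and 7.84 and 8.42 on Snx5+/+ air arrays. Each array detected 47.5% to 49.4% of its 25697 probes. The lung genes of the marker list (Sftpc, Sftpb, Sftpa1, Nkx2-1, Scgb1a1, Ager, Pdpn and Aqp5) were detected on all arrays. Both Snx5-/- air arrays stood apart in sex-linked genes. Eif2s3y, on the Y chromosome, read 11.81 and 11.73 there, against 7.13 to 7.40 on the other 6 arrays, and Xist read 7.83 and 7.77, against 11.82 to 12.58. In the air state, sex and genotype therefore cannot be told apart, whereas no non-air array carried this signal. This follows the log2 table's labels. Under the intensity table's labels the arrays with the Y-linked signal would be the Snx5-/- non-air arrays. The separate samples are called biological replicates in the methods. With 2 arrays per group the number of arrays limits the precision.

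Collagens are triple helices of 3 chains. Fibrillar collagens, such as type I and type III, form the tensile fibres of the interstitium and of airway and vessel walls. Basement membranes are thin sheets under epithelium and around vessels, in which a type IV collagen network and a laminin network are joined by nidogen and perlecan. Laminins are trimers of an α, a β and a γ chain. In the lung at the end of gestation, alveolar epithelium and capillaries come to share a thin basement membrane, and the mesenchyme between air spaces becomes thinner. In whole-lung RNA, fewer cells of a type and less RNA per cell cannot be told apart.

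Of the 43 members, 29 were detected on all 8 arrays, 3 on some arrays and 11 on none at a detection p-value of 0.01. The 11 undetected genes were Col2a1, Col5a3, Col9a1, Col9a3, Col11a1, Col10a1, Col8a2, Col13a1, Col19a1, Col6a6 and Lama4. Several of them, such as Col2a1, Col9a1 and Col11a1, are chains of cartilage collagens, and 5 of the 9 cartilage markers on the array were also undetected. However, 3 of these markers (Matn4, Hapln1 and Sox9) were detected on all 8 arrays, as was the type IX chain Col9a2. Col11a2 and Col28a1 were each detected on 1 array and Col25a1 on 2. A member was tested in a comparison if its mean log2 intensity exceeded 8 in at least 1 group, which kept 32 members for the difference between genotypes, 8 of them fibrillar and 11 of the basement membrane. A call needed a limma p, adjusted by Benjamini-Hochberg over all probes tested, under 0.05 and a log2 fold change beyond 0.35 in either direction.

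Averaged over both states, 6 of 32 tested members were lower in Snx5-/- lungs and none was higher, where 2.41% of all tested genes were called in either direction. The 6 were the type I collagen chains Col1a1 and Col1a2, the type IV chain Col4a2, the type VI chain Col6a2 and the laminin chains Lamb3 and Lamc3. Their mean level in the 4 Snx5-/- lungs was between 58.6% (Lamc3) and 77.8% (Col6a2) of that in the 4 Snx5+/+ lungs. The median log2 fold change of the tested members was -0.17, with 28 of 32 below 0, while the median of all tested genes was 0.01. This is a description, since the members were chosen with results of these arrays known. The 4 members above 0 were Col27a1, Col17a1, Col4a6 and Col24a1. Sex enters this average through the Snx5-/- air lungs, since Eif2s3y differed by 2.20 and Xist by -2.02 on the log2 scale. Without air, where no array carried the Y-linked signal under the log2 table's labels, 1 of 32 tested members was called. Under the intensity table's labels that signal would fall in the Snx5-/- non-air lungs. The part of sex in the averaged differences was not tested.

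Type I collagen is the main protein of tensile fibres and is built from α1(I) and α2(I) chains. Col1a1 read 13.04 and 12.95 in Snx5-/- non-air lungs, 13.62 and 13.42 in Snx5+/+ non-air lungs, 12.72 and 13.22 in Snx5-/- air lungs, and 13.48 and 13.58 in Snx5+/+ air lungs. All 4 mutant lungs lay below all 4 wild-type lungs, with a gap of 0.20. The log2 fold change over both states was -0.54 ± 0.11 (SE, limma adjusted p = 0.018, 4 arrays per genotype), which left Col1a1 at 68.6% of the Snx5+/+ level. Neither state alone reached the threshold, with -0.52 ± 0.15 without air (limma adjusted p = 0.209) and -0.56 ± 0.15 after it (limma adjusted p = 0.088). The call over both states was lost without any 1 of 4 arrays, both Snx5-/- non-air and both Snx5+/+ air arrays, at adjusted p-values between 0.0554 and 0.103.

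Col1a2 encodes the other chain of type I collagen. It read 10.52 and 10.71 in Snx5-/- non-air lungs, 11.07 and 10.88 in Snx5+/+ non-air lungs, 10.18 and 10.53 in Snx5-/- air lungs, and 10.91 and 11.09 in Snx5+/+ air lungs. Again the genotypes did not overlap. The log2 fold change was -0.50 ± 0.10 over both states (limma adjusted p = 0.0169), and it was -0.64 ± 0.14 after the air test (limma adjusted p = 0.0347) and -0.36 ± 0.14 without it (limma adjusted p = 0.315). The test of the difference between these states gave -0.28, with a 95% interval of -0.71 to 0.14. The call after the air test was lost without any 1 of 5 arrays, both Snx5-/- non-air arrays, both Snx5+/+ air arrays and Snx5-/- air replicate 1 (adjusted p between 0.0649 and 0.308), and it was lost with neqc, another background correction and normalization (0.06). Over both states the call was lost without Snx5-/- non-air replicate 1 (adjusted p = 0.1), Snx5+/+ air replicate 2 (0.0881) or Snx5-/- air replicate 1 (0.0648).

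**Figure D1:**
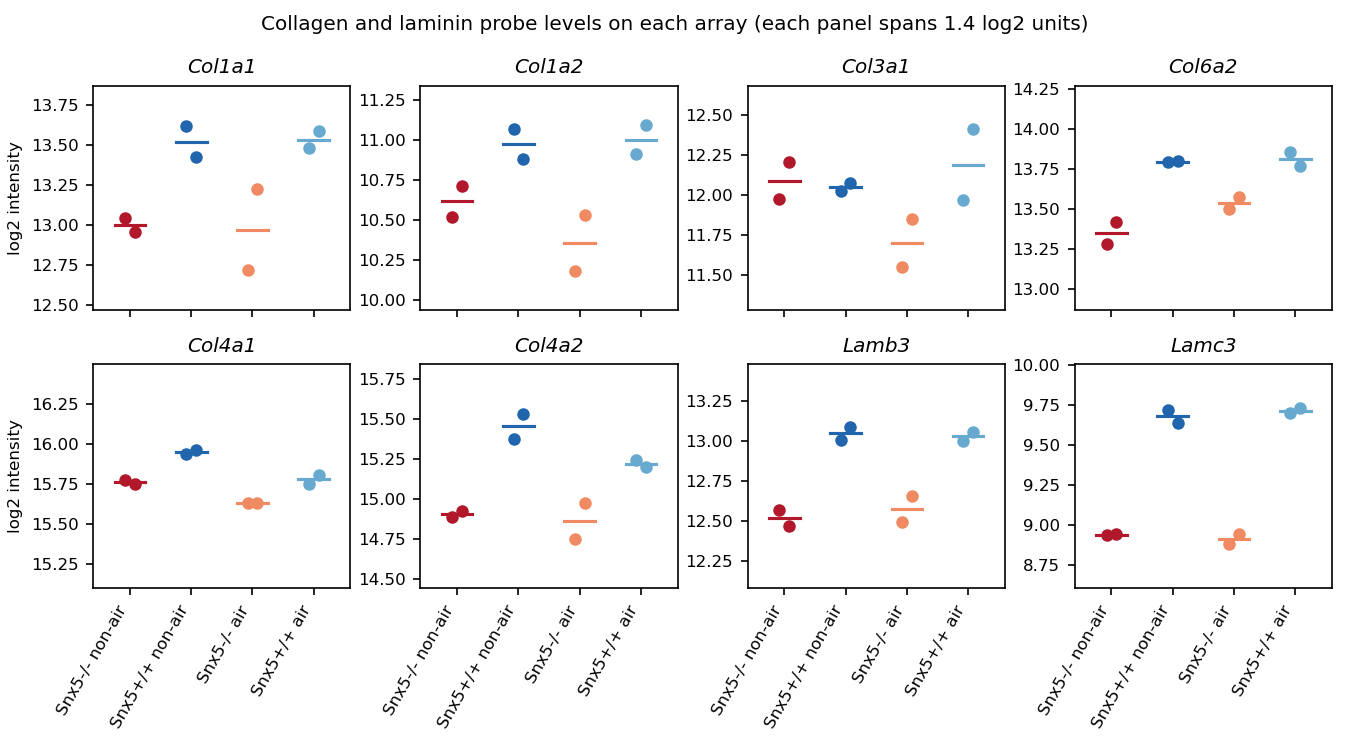
Log2 intensity of 8 member probes on each array (points) by group, with the group mean as a line; every panel spans 1.4 log2 units. Lamc3 reads 8.88 to 8.94 on all Snx5-/- arrays and 9.64 to 9.73 on all Snx5+/+ arrays, while the Col3a1 genotypes overlap.

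Col3a1, the single chain of type III collagen, which forms mixed fibres with type I, did not pass the test in either state. It read 11.97 and 12.21 in Snx5-/- non-air lungs against 12.02 and 12.08 in Snx5+/+ non-air lungs, where the groups overlap. After the air test it read 11.55 and 11.85 in Snx5-/- lungs against 11.97 and 12.41 in Snx5+/+ lungs, which do not overlap (log2 fold change -0.49 ± 0.15, limma adjusted p = 0.149). Over both states the log2 fold change was -0.22 ± 0.11 (limma adjusted p = 0.37). The type V chains, which set fibre diameter, were below 0 without a call, with -0.18 ± 0.08 for Col5a1 and -0.07 ± 0.08 for Col5a2 over both states.

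Col27a1, a minor fibrillar collagen known from cartilage, ran the other way. It read 9.47 and 9.34 in Snx5-/- non-air lungs against 9.24 and 9.19 in Snx5+/+ non-air lungs, and 9.25 and 9.27 in Snx5-/- air lungs against 9.08 and 8.98 in Snx5+/+ air lungs. It was the 1 tested member whose representing probe had all 4 mutant lungs above all 4 wild-type lungs, as did 3.14% of all tested genes, with a difference of 0.21 ± 0.07 on the log2 scale and no call (limma adjusted p = 0.167). The probes of Col24a1, another minor fibrillar collagen, did not give the same picture. Its representing probe lay at 0.02 ± 0.08. A second probe, detected on all 8 arrays, read 9.64 and 9.65 in Snx5-/- non-air lungs against 9.52 and 9.54 in Snx5+/+ non-air lungs, and 9.94 and 9.74 in Snx5-/- air lungs against 9.52 and 9.32 in Snx5+/+ air lungs. On this probe all mutant lungs lay above all wild-type lungs, without a call, at 0.27 ± 0.08 over both states (limma adjusted p = 0.109) and 0.42 ± 0.11 after the air test (limma adjusted p = 0.0818).

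**Figure D2:**
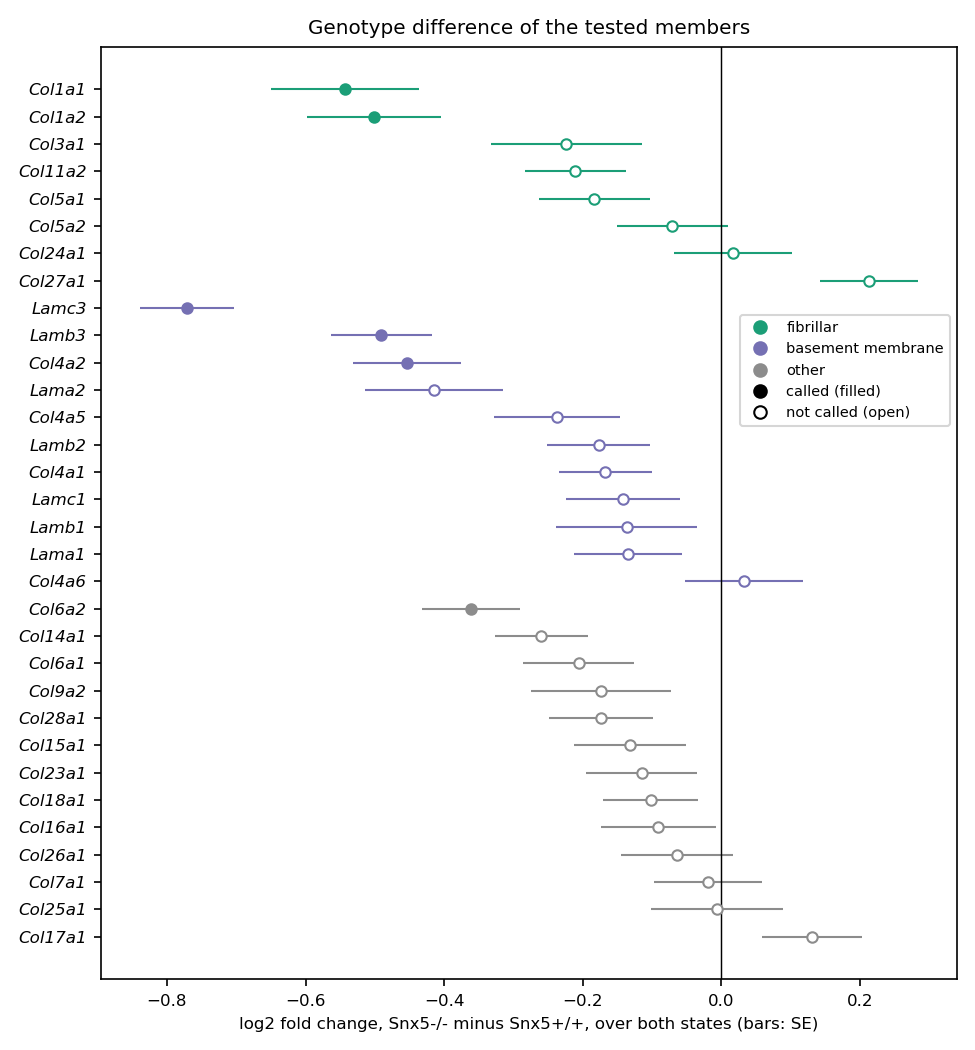
Log2 fold change (Snx5-/- minus Snx5+/+, over both states, bars SE, 4 arrays per genotype) of the 32 tested members, ordered within the fibrillar, basement membrane and other classes; filled points were called. The 6 filled points lie between -0.77 (Lamc3) and -0.36 (Col6a2), and 4 members lie above 0.

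Among basement membrane genes, Col4a2 encodes the α2(IV) chain of the type IV network found in nearly all basement membranes. It read 14.88 and 14.92 in Snx5-/- non-air lungs, 15.37 and 15.53 in Snx5+/+ non-air lungs, 14.75 and 14.97 in Snx5-/- air lungs, and 15.24 and 15.20 in Snx5+/+ air lungs. The genotypes were apart by at least 0.22. The log2 fold change was -0.45 ± 0.08 over both states (limma adjusted p = 0.00809), -0.55 ± 0.11 without air (limma adjusted p = 0.0554) and -0.36 ± 0.11 after it (limma adjusted p = 0.138). Without Snx5-/- non-air replicate 1 the adjusted p over both states was 0.0537.

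Col4a1, its partner in the same trimer, read 15.77 and 15.75 in Snx5-/- non-air lungs against 15.94 and 15.96 in Snx5+/+ non-air lungs, and 15.63 and 15.63 in Snx5-/- air lungs against 15.75 and 15.81 in Snx5+/+ air lungs. Within each state the mutant lungs were lower, but the states overlapped across genotypes, and at -0.17 ± 0.07 it was not called (limma adjusted p = 0.261). This probe lies close to the highest value of the arrays, 16.09, where differences in intensity can be compressed. The X-linked chains Col4a5 and Col4a6 had log2 fold changes of -0.24 ± 0.09 and 0.03 ± 0.09 over both states. In Snx5-/- air lungs, which carried the Y-linked signal, Col4a5 read 11.46 and 11.16 against 11.42 and 11.47 in Snx5+/+ air lungs.

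Promoter windows were taken from the RefSeq promoter table of build GRCm38.p6, which matched 33 of the 43 members but held no window for Col1a1 or Lamc3. The 150 bases before the annotated start are shown for 2 of the called members, Col1a2 (chr6:4505468-4505617, plus strand) and Col6a2 (chr10:76623631-76623780, minus strand, the outer of its 2 windows), as 1 window that holds the motif searched and 1 that does not. Capitals mark CCAAT, a common promoter motif, searched on both strands (CCAAT or ATTGG) within 250 bases before the start. Of all promoter windows 33.8% hold it, and 13 of the 33 matched members hold it in at least 1 window. Some members have 2 windows and count once, so these shares are not in the same unit. The motif begins 109 bases before the Col1a2 start. Col4a2 and its partner Col4a1 hold it as well, while the windows of Col6a2 and Lamb3 do not. The windows of Col4a1 and Col4a2 are not shown, because these genes lie on opposite strands of chromosome 8 with starts 21 bases apart and overlapping first bases, so each window lies within the other gene. The match is a description of the letters only.
Col1a2: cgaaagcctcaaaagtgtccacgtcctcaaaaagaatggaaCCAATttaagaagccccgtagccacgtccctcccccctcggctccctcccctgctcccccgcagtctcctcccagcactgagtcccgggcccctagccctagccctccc
Col6a2: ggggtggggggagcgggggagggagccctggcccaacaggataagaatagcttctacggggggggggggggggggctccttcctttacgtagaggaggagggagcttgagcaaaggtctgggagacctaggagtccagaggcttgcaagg

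All 7 tested laminin chains lay below 0 over both states, and 2 were called, where 2.41% of all tested genes were. Lamc3 encodes the γ3 chain. It read 8.94 and 8.94 in Snx5-/- non-air lungs, 9.72 and 9.64 in Snx5+/+ non-air lungs, 8.88 and 8.94 in Snx5-/- air lungs, and 9.70 and 9.73 in Snx5+/+ air lungs. The gap between the genotypes was 0.69, while the SD within the groups was at most 0.06. Lamc3 was called without air (-0.74 ± 0.10, limma adjusted p = 0.00592), after it (-0.80 ± 0.10, limma adjusted p = 0.00094) and over both states (-0.77 ± 0.07, limma adjusted p = 9.46e-05). Without either Snx5-/- non-air array the non-air call was lost (adjusted p = 0.109 and 0.116). Lamc3 is on chromosome 2, as is Snx5, 1004 places away in the RefSeq gene order. A further Lamc3 probe was not detected on any array, and averaging both probes gave -0.34 without air (adjusted p = 0.13).

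Lamb3 encodes the β3 chain of laminin-332, the laminin by which epithelial cells anchor to their basement membrane. It read 12.57 and 12.47 in Snx5-/- non-air lungs, 13.01 and 13.08 in Snx5+/+ non-air lungs, 12.49 and 12.66 in Snx5-/- air lungs, and 13.001 and 13.06 in Snx5+/+ air lungs. The gap between the genotypes was 0.35. The log2 fold change was -0.49 ± 0.07 over both states (limma adjusted p = 0.00353) and this call held without each of the 8 arrays. It was -0.45 ± 0.10 after the air test (limma adjusted p = 0.0457), a call lost without any 1 of 6 arrays, namely those of both Snx5-/- groups and of Snx5+/+ air (adjusted p between 0.0871 and 0.327). It was also lost with a replicate block (adjusted p = 0.0664), with neqc (0.0691) and with the arrays of this comparison alone (0.0586). Without air it was -0.53 ± 0.10 (limma adjusted p = 0.0529).

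The other laminin chains had smaller differences. Lama2, the α2 chain of laminins around muscle cells, read 9.10 and 9.56 in Snx5-/- non-air lungs against 9.80 and 9.88 in Snx5+/+ non-air lungs, and over both states its log2 fold change was -0.41 ± 0.10 (limma adjusted p = 0.0516). Lamb2 and Lamc1, widespread β2 and γ1 chains, lay at -0.18 ± 0.07 and -0.14 ± 0.08 without a call. Lamc1 read 13.77 and 13.67 in Snx5-/- non-air lungs against 13.90 and 14.17 in Snx5+/+ non-air lungs, and 13.76 and 13.84 in Snx5-/- air lungs against 13.84 and 13.69 in Snx5+/+ air lungs, where the groups overlap. Lamb1 and Lama1 lay at -0.14 ± 0.10 and -0.13 ± 0.08.

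Outside these 2 classes, Col6a2 was the called member. Type VI collagen forms beaded filaments beside basement membranes and is assembled from its α1, α2 and further chains. Col6a2 read 13.28 and 13.42 in Snx5-/- non-air lungs, 13.80 and 13.80 in Snx5+/+ non-air lungs, 13.50 and 13.57 in Snx5-/- air lungs, and 13.86 and 13.77 in Snx5+/+ air lungs. The genotypes did not overlap, and the log2 fold change over both states was -0.36 ± 0.07 (limma adjusted p = 0.0185), close to the fold cutoff. This call was lost without any 1 of 5 arrays, every array but the Snx5+/+ non-air pair and Snx5-/- air replicate 2 (adjusted p between 0.0519 and 0.111).

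The probes of Col6a1 differed in call. The representing probe read 15.30 and 15.40 in Snx5-/- non-air lungs, 15.49 and 15.77 in Snx5+/+ non-air lungs, 15.35 and 15.41 in Snx5-/- air lungs, and 15.54 and 15.48 in Snx5+/+ air lungs (-0.21 ± 0.08 over both states, limma adjusted p = 0.248). A dimmer probe of the gene, which lies further from the array maximum, was called at -0.39 ± 0.07 (limma adjusted p = 0.00984), with 13.87 and 13.88 in Snx5-/- non-air lungs against 14.38 and 14.35 in Snx5+/+ non-air lungs, and 13.86 and 13.98 in Snx5-/- air lungs against 14.23 and 14.19 in Snx5+/+ air lungs. On both probes all mutant lungs were below all wild-type lungs. No other second probe of a member was called in any comparison. Col17a1, a transmembrane collagen of the epithelial attachment complex, lay above 0 on its 3 tested probes (0.13 to 0.17) without a call.

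All 4 mutant lungs lay below all 4 wild-type lungs for 7 of the 32 tested members, the 6 called genes and Col6a1, where 4.77% of all tested genes did so. The comparisons without air and after the air test share no array. Of the 32 members tested in both, 23 had a log2 fold change below 0 in both states, 2 were above 0 in both and 7 differed in sign. Among the 9223 genes tested in both, 25.5% were below 0 in both. Without air, 1 of 32 members was called (Lamc3), where 0.639% of all genes were. After the air test 3 of 32 were called (Lamc3, Col1a2 and Lamb3), where 2.36% of all genes were. All of these calls were lower in Snx5-/- lungs.

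**Figure D3:**
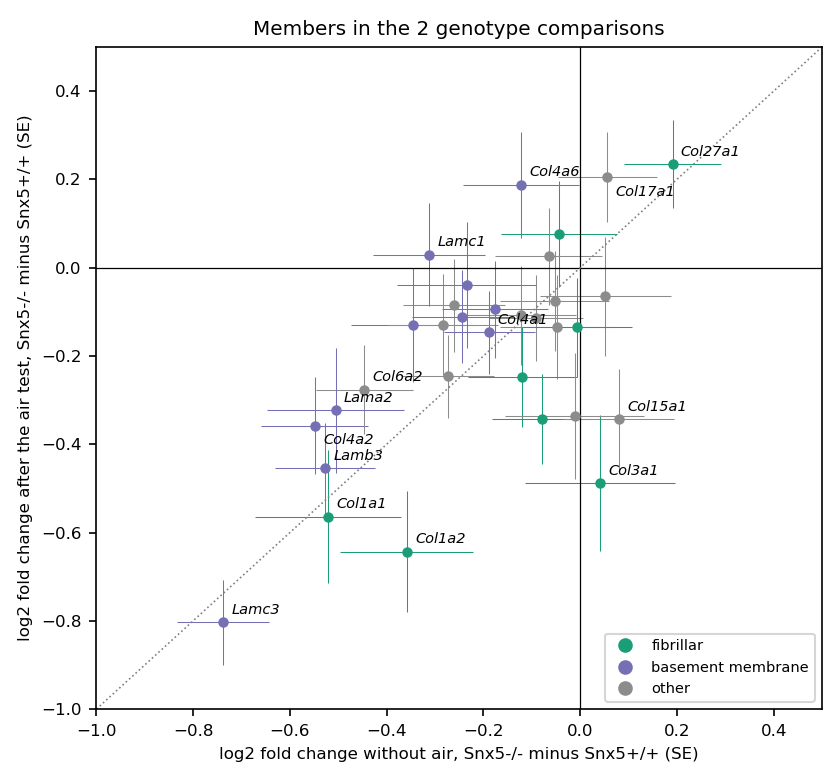
Log2 fold change (Snx5-/- minus Snx5+/+, bars SE) of the members without air (x axis) and after the air test (y axis), coloured by class, with the line of equal change dotted. Of 32 members, 23 fall in the lower left; Lamc3 lies at -0.74 and -0.80, and Col3a1 lies near 0 on the x axis alone.

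Fibrillar and basement membrane members had nearly the same median over both states, -0.20 for 8 fibrillar genes and -0.18 for 11 basement membrane genes, a difference of -0.02. In the single states the order of the classes changed. Without air the fibrillar median was -0.06 and the basement membrane median -0.31, with 11 of 11 basement membrane members below 0. After the air test the fibrillar median was -0.29 and the basement membrane median -0.13. The fibrillar minus basement membrane difference was thus 0.25 without air and -0.16 after it. On single arrays, the median log2 level of fibrillar genes minus that of basement membrane genes had an SD within groups of 0.27, larger than either value. On every array these medians were the level of Col1a2 and that of Col4a5 or Lamb2. This SD thus rests on single genes and does not measure the spread of the class differences. Under the intensity table's labels both states exchange places, and so do these differences (-0.17 and 0.25). Col11a2, detected on 1 array, was a middle gene of the fibrillar median without air, after the air test and over both states. With a detection filter, which leaves it out, the fibrillar median was -0.04 without air, -0.25 after the air test and -0.18 over both states. The class difference was not tested.

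The interaction, the genotype difference after the air test minus that without it, was called for 0 of 32 members (limma), and 2 had an unadjusted p under 0.05, Col3a1 and Col15a1, where 1155 of 9635 tested genes had one. Among all tested genes 0.488% were called. The interaction cannot be told apart from sex, since Eif2s3y had one of 4.53 and Xist one of -5.06. The interaction of Col3a1 was -0.53 ± 0.22 with a 95% interval of -1.01 to -0.05 (limma adjusted p = 0.38). That of Col15a1, a collagen at the outer face of vessel basement membranes, was -0.42 ± 0.16 (limma adjusted p = 0.354). Lamc1, Col9a2 and Col4a6 followed with 0.34 ± 0.16, -0.32 ± 0.20 and 0.31 ± 0.17. The interval of the interaction was -0.51 to 0.43 for Col1a1, -0.15 to 0.53 for Col4a2, -0.25 to 0.33 for Col4a1, -0.25 to 0.39 for Lamb3 and -0.36 to 0.23 for Lamc3. Of the basement membrane members 10 of 11 had an interaction above 0, and of the fibrillar members 6 of 8 had one below 0.

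The air test itself changed no member past the threshold. In Snx5-/- lungs 0 of 30 members were called (limma, 4 with an unadjusted p under 0.05, as had 933 of 9416 genes), where 0.701% of all genes were, and in Snx5+/+ lungs 0 of 32 (limma, 4 with an unadjusted p under 0.05, as had 1584 of 9426 genes), where 0.796% were. In Snx5-/- lungs air and sex cannot be told apart, since Eif2s3y differed by 4.59 and Xist by -4.71 on the log2 scale. Over both genotypes 0 of 32 were called (7 with an unadjusted p under 0.05, as had 1282 of 9635 genes), where 1.27% of all genes were, although 28 of 32 lay below 0, with a median of -0.09 against 0.00 for all genes. Sex enters this average too, where Eif2s3y differed by 2.32 and Xist by -2.19 on the log2 scale. By the methods' t-test, once its p-values were adjusted by Benjamini-Hochberg, the count was also 0 in each of the 3. The fold cutoff was kept, so these counts add little. Over both genotypes the largest difference was -0.27 (Col14a1), within the cutoff, so either test could only give 0 there. In the single genotypes only Col3a1 (-0.39 in Snx5-/- lungs) and Col4a6 (-0.39 in Snx5+/+ lungs) passed the cutoff. The t-test was run without the median ratio test and permutations that the methods combine with it. This t-test can miss large differences, since without air it gave the Lamc3 genotype difference an adjusted p of 0.52. The 3 air comparisons turn in sign if the intensity table's labels are followed.

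None of the largest air differences was a call. In Snx5-/- lungs they were those of Col3a1 (-0.39 ± 0.15), Col5a2 (-0.31 ± 0.11), Col5a1 (-0.27 ± 0.11), Col1a2 (-0.26 ± 0.14) and Col14a1 (-0.26 ± 0.09), most of them chains of interstitial fibres, at limma adjusted p-values from 0.4 to 0.592. The fibrillar median was -0.26 and the basement membrane median -0.04. In Snx5+/+ lungs they were those of Col4a6 (-0.39 ± 0.12), Col4a5 (-0.30 ± 0.13), Col14a1 (-0.28 ± 0.09), Lamc1 (-0.27 ± 0.12) and Lamb1 (-0.23 ± 0.14), at limma adjusted p-values from 0.175 to 0.426, with a fibrillar median of -0.04 and a basement membrane median of -0.20. These comparisons and the genotype comparisons share arrays, so the pattern is not a separate observation. Over both genotypes Col14a1 lay lowest (-0.27 ± 0.07, limma adjusted p = 0.0929), followed by Col5a2, Col4a6, Col16a1 and Col5a1 between -0.24 and -0.21.

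Col14a1, a collagen that sits on fibre surfaces, read 10.00 and 9.98 in Snx5-/- air lungs against 10.23 and 10.27 in Snx5-/- non-air lungs, and 10.27 and 10.21 in Snx5+/+ air lungs against 10.53 and 10.52 in Snx5+/+ non-air lungs. The air arrays lay below the non-air arrays within each genotype, yet neither the air differences (-0.26 in Snx5-/- and -0.28 in Snx5+/+ lungs) nor the genotype differences (-0.25 with and -0.27 without air) were called. The log2 differences of the core chains with air, none of them called, were in Snx5-/- and Snx5+/+ lungs -0.03 and 0.01 for Col1a1, -0.13 and -0.17 for Col4a1, -0.04 and -0.23 for Col4a2, 0.06 and -0.08 for Lamb2, and 0.07 and -0.27 for Lamc1. The 95% interval for Col1a1 was -0.36 to 0.30 in Snx5-/- lungs and -0.32 to 0.34 in Snx5+/+ lungs.

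**Figure D4:**
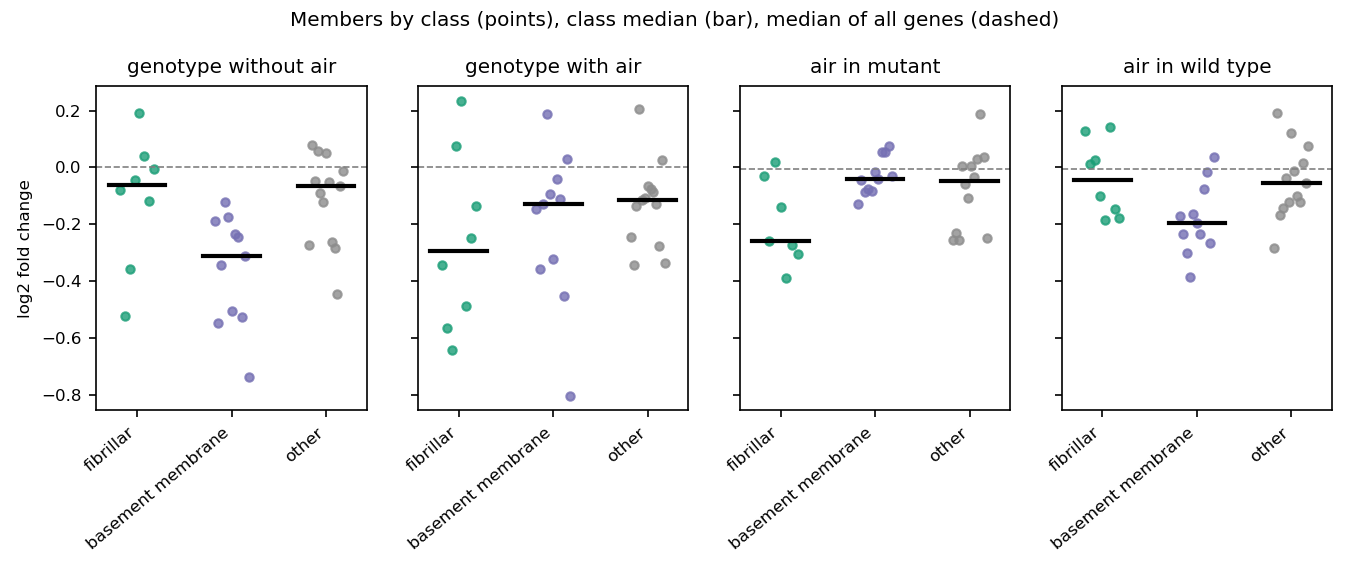
Log2 fold change of each tested member (points) by class in 4 comparisons, with the class median (bar) and the median of all tested genes (dashed line). The basement membrane median is lowest of the classes without air (-0.31) and the fibrillar median is lowest after the air test (-0.29).

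Across the 8 arrays, the members whose levels followed Col1a1 most closely were Lamb3 (Pearson r = 0.93), Col1a2 (0.92) and Lamc3 (0.91), out of 29 members detected on all arrays. Those closest to Col4a1 were Col14a1 (0.97), Col4a2 (0.86) and Col4a5 (0.83). These correlations describe arrays that share the genotype and air groups, and no test was made.

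Genes that make, bind or degrade these chains were taken from lists written with earlier results of these arrays known. Of 19 tested genes of collagen synthesis and assembly, none was called higher over both states, and the median was -0.23. Past the threshold 3 were lower in Snx5-/- lungs, where 2.41% of all tested genes were called in either direction. They were Serpinh1, the collagen chaperone HSP47 of the endoplasmic reticulum (-0.39 ± 0.09, limma adjusted p = 0.0313), Crtap, a subunit of the prolyl 3-hydroxylation complex (-0.37 ± 0.07, limma adjusted p = 0.0128), and P3h3, of the prolyl 3-hydroxylase family (-0.37 ± 0.07, limma adjusted p = 0.0137). Crtap read 11.43, 11.54, 11.43 and 11.46 in the Snx5-/- lungs against 11.78, 11.79, 11.85 and 11.93 in the Snx5+/+ lungs, which do not overlap. After the air test only Crtap of this list was called, and without air no gene was. Of all tested genes 2.36% were called after the air test and 0.639% without air.

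Of 8 basement membrane partners all lay below 0 over both states and 3 were lower past the threshold, where 2.41% of all tested genes were called. They were Nid1, the nidogen that links laminin to type IV collagen (-0.37 ± 0.08, limma adjusted p = 0.0293), Hspg2, which encodes perlecan (-0.39 ± 0.09, limma adjusted p = 0.0407), and Fbln1, a fibulin of basement membranes and elastic fibres (-0.41 ± 0.07, limma adjusted p = 0.00747). Fbln1 read 12.60, 12.60, 12.17 and 12.22 in the Snx5-/- lungs against 12.76, 12.86, 12.76 and 12.85 in the Snx5+/+ lungs. Of 12 receptors, Itga3, the α3 integrin subunit that binds laminin-332 (-0.46 ± 0.08, limma adjusted p = 0.00966), and Bcam, a receptor for laminin α5 (-0.60 ± 0.08, limma adjusted p = 0.00158), were lower and none was higher. Bcam read 10.86, 10.96, 10.91 and 11.02 in the Snx5-/- lungs against 11.54, 11.38, 11.53 and 11.71 in the Snx5+/+ lungs.

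Among 5 tested regulators of fibre assembly, Lum, a small proteoglycan that limits fibre thickness, was higher in Snx5-/- lungs (0.51 ± 0.08, limma adjusted p = 0.00487), while Fmod, a related proteoglycan, lay at -0.31 ± 0.10 (limma adjusted p = 0.163). Of 7 tested degrading enzymes and inhibitors, Timp2, an inhibitor of matrix metalloproteinases, was lower (-0.39 ± 0.07, limma adjusted p = 0.013), and Mmp14, a membrane-bound collagenase, lay at -0.29 ± 0.07 (limma adjusted p = 0.0617). After the air test Timp1, a further inhibitor, was lower as well, with 9.59 and 9.72 in Snx5-/- lungs against 10.15 and 10.35 in Snx5+/+ lungs (-0.59 ± 0.14, limma adjusted p = 0.0469). In that state sex and genotype cannot be told apart. Without air Timp1 lay the other way with no call, at 9.94 and 10.07 in Snx5-/- lungs against 9.85 and 9.47 in Snx5+/+ lungs (0.34 ± 0.14, limma adjusted p = 0.327), and over both states its log2 fold change was -0.13 ± 0.10. For the genotype difference over both states 2.41% of all tested genes were called. The air test changed no gene of these 5 lists past the threshold in either genotype. Among all tested genes it changed 0.701% in Snx5-/- lungs and 0.796% in Snx5+/+ lungs.

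**Figure D5:**
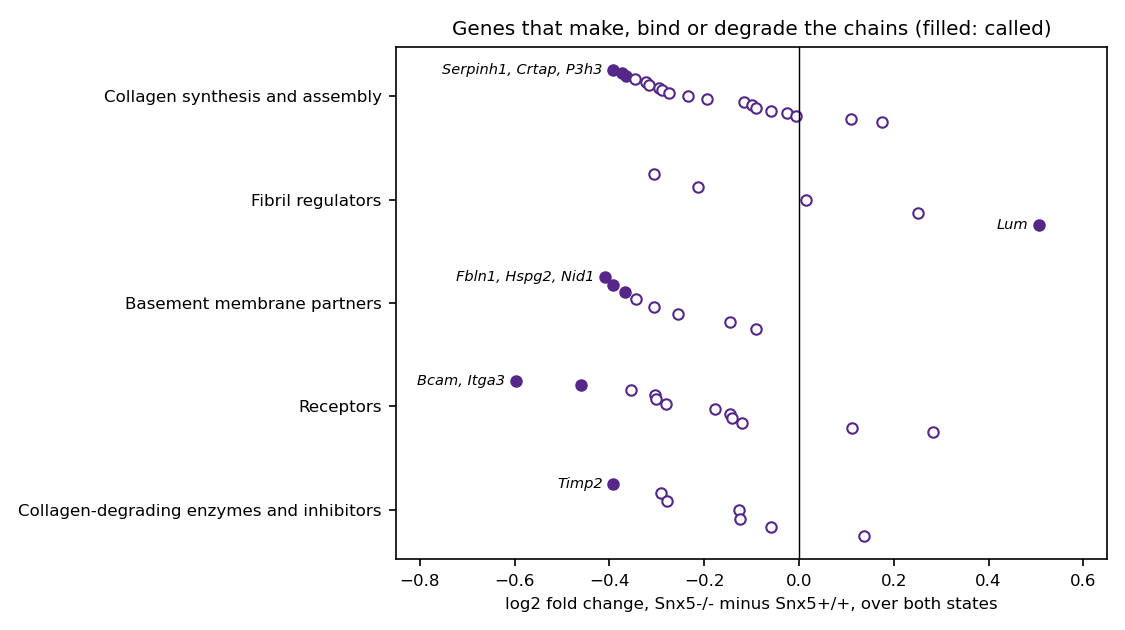
Log2 fold change (Snx5-/- minus Snx5+/+, over both states) of genes that make, bind or degrade collagen and laminin chains, 1 point per tested gene in 5 lists; filled points were called and named. All 8 basement membrane partners lie below 0, and Lum at 0.51 is the called gene above 0.

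Markers of other cells moved with genotype too. Over both states 2.41% of all tested genes were called in either direction. Of the 4 heart muscle markers 3 were tested and all 3 were higher in Snx5-/- lungs over both states (Actc1 0.83 ± 0.08, limma adjusted p = 0.000174, Myl7 0.88 ± 0.13, adjusted p = 0.00385, and Myh6 0.77 ± 0.10, adjusted p = 0.00155), and Nppa was detected on no array. Their summed level, as log2 of the summed intensities, was 12.89 to 12.93 in Snx5-/- non-air lungs against 12.07 to 12.43 in Snx5+/+ non-air lungs, and 13.02 to 13.14 in Snx5-/- air lungs against 12.11 to 12.19 in Snx5+/+ air lungs. Of the 3 skeletal muscle markers 2 were called higher in Snx5-/- lungs, Ckm, a creatine kinase (limma adjusted p = 0.00351), and Acta1, an actin (limma adjusted p = 0.00409), while Tnnt3 was not. Ckm was detected on the 4 Snx5-/- arrays alone, and Acta1 and Tnnt3 on 1 array each, so no fold is given. The summed level of the 3 was 9.53 to 9.85 in Snx5-/- non-air lungs against 9.34 to 9.37 in Snx5+/+ non-air lungs, and 9.92 to 10.06 in Snx5-/- air lungs against 9.34 to 9.37 in Snx5+/+ air lungs. Of the 3 neutrophil markers all were higher in Snx5-/- lungs (S100a8 0.79 ± 0.13, limma adjusted p = 0.00604, S100a9 0.92 ± 0.12, adjusted p = 0.00124, and Retnlg 0.82 ± 0.10, adjusted p = 0.00118), with summed levels of 13.63 to 13.67 in Snx5-/- non-air lungs against 12.48 to 13.13 in Snx5+/+ non-air lungs, and 14.36 to 14.61 in Snx5-/- air lungs against 13.66 to 13.74 in Snx5+/+ air lungs. Of the lung identity markers, the alveolar type I cell genes Ager, Pdpn and Aqp5 were lower (3 of 8 called, -0.45 to -0.52). Of 3 tested endothelial markers none was called, at a median of -0.36, the largest differences being Pecam1 (-0.41 ± 0.11, limma adjusted p = 0.0854) and Cdh5 (-0.36 ± 0.09, limma adjusted p = 0.052), and Kdr was detected on no array.

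Of 9 fibroblast markers, Eln (-0.38 ± 0.08, limma adjusted p = 0.0231) and Tgfbi (-0.48 ± 0.08, limma adjusted p = 0.00644) were lower and Lum was higher, and the list's median was 0.07. Among all tested genes 2.41% were called over both states and 0.639% without air. The liver genes Ahsg and Fga, of secreted plasma proteins, were detected on both Snx5-/- non-air arrays and on no other array, and were called higher there than in Snx5+/+ non-air lungs, by at least 1.45-fold for Ahsg (limma adjusted p = 0.00591) and at least 1.35-fold for Fga (limma adjusted p = 0.00333). These folds set the mean of the mutant arrays against the higher of the probe's own signal and the lowest detected signal on each wild-type array. Over both states Ahsg was called (limma adjusted p = 0.00984) and Fga was not. Alb and Apoa1 were detected on no array. Alas2, an erythroid gene, was lower in Snx5-/- lungs over both states (-0.72 ± 0.08, limma adjusted p = 0.000769), whereas the Hba-a1 probe read 16.05 to 16.09, at the array maximum of 16.09, and gives no usable difference. Alas2 read 13.25 and 13.11 in Snx5-/- non-air lungs against 13.47 and 13.61 in Snx5+/+ non-air lungs. In air lungs, where sex and genotype cannot be told apart, it read 12.62 and 12.53 in Snx5-/- against 13.51 and 13.79 in Snx5+/+ lungs. The largest differences among cartilage markers were Matn4 (-0.33 ± 0.10, limma adjusted p = 0.137) and Hapln1 (-0.20 ± 0.08, limma adjusted p = 0.227), with no call. The mesothelial genes Wt1 and Msln ran in opposite directions, at 0.40 ± 0.07 and -0.55 ± 0.07. The part of these cell types in the collagen and laminin differences was not tested.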

How the data were processed

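Total RNA of 8 whole lungs (4 groups of 2) was measured on Illumina mouse bead arrays. The authors deposited log2 values, which the methods describe as quantile normalized, and linear probe intensities without normalization, each with a detection p-value. The sources used here do not say how the deposited detection p-values were made. The intensities of each array rank like the log2 values labelled with the other air state (rank correlation at least 0.99975, next at most 0.972), while the detection p-values rank with the log2 values of their own label. The log2 labels were followed. Unused per-sample columns numbered 0.

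All 8 arrays entered 1 linear model with a mean per group (limma 3.58.1, R 4.3.3), from which 7 comparisons were drawn without a replicate block. Calls required p under 0.05 after Benjamini-Hochberg adjustment together with a log2 fold change beyond 0.3531 in either direction, and tested probes had to exceed a log2 intensity of 8 in the mean of at least 1 group, cutoffs taken from the methods. Class medians were compared as a description. The fits were tested on simulated data. Promoters were matched by symbol, and genes to RefSeq by Entrez identifier (43 of 43 members). Figures used matplotlib 3.10.9.

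The members and lists were chosen with earlier results of these data known. Named genes are the called members, in comparisons with fewer than 5 calls the largest differences up to 5, the chains Col1a1, Col1a2, Col3a1, Col4a1, Col4a2, Lamb2 and Lamc1, the called genes of the other lists or else their 2 largest differences, given in full for the genotype difference over both states, and the 3 members most like Col1a1 and Col4a1. Further genes (Col27a1, Col24a1, Col6a1, Col4a5, Col17a1 and others) were named after their values were seen. Alternatives covered labels, normalization, filters, variance models, the replicate block, the methods' t-test, probe averaging and leaving out each array. Some type IV collagen chains are not reported here.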

Additional observations from a re-analysis of the deposited data

How the results depend on the processing

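Over both states, the count of 6 members lower in Snx5-/- lungs was 6 or 7 under all alternatives that kept the 8 arrays, except the methods' t-test with adjusted p-values, with 1 (Lamc3). The replicate block gave 6 over both states, 1 without air, 2 after the air test (Col1a2 and Lamc3, without Lamb3 at an adjusted p of 0.0664) and 0 for the air comparisons and the interaction. Leaving out 1 array gave 2 to 6 over both states (2 without Snx5-/- non-air replicate 1, 3 without Snx5+/+ air replicate 2).

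Without air, the count of 1 became 3 with the intensities under their own labels, 3 with 64 added before log2, 3 with no intensity filter, 4 with an intensity trend, 5 with the methods' unadjusted t-test, 2 with the mean of a gene's probes (Col4a2 and Lamb3) and 0 with the adjusted t-test. Leaving out 1 array gave 0 to 3, 0 when either mutant non-air array was left out and 3 without Snx5+/+ non-air replicate 1, where the count over all genes was 540 in place of 60. Leaving out both Snx5-/- air arrays, an alternative chosen after seeing the data, gave 1. After the air test, the count of 3 became 1 with the intensities under their own labels, 1 with neqc, 5 with median scaling and 0 with the adjusted t-test, and 1 to 3 with 1 array left out (1 without either Snx5-/- non-air array, either Snx5+/+ air array or Snx5-/- air replicate 1). The count stayed 0 under each alternative run in the air comparisons and the interaction. Over both genotypes no air difference of a member passed the fold cutoff in the main fit. Alternatives that kept these differences and this cutoff could only give 0 there.

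With the intensities under their own labels the fibrillar minus basement membrane difference moved by more than 0.27. This yardstick is the SD within groups on single arrays, which does not measure the spread of the class difference. The difference became -0.17 without air, 0.25 after the air test, 0.22 for air in Snx5-/- lungs, -0.15 for air in Snx5+/+ lungs and 0.32 for the interaction. With no intensity filter it was 0.003 after the air test and -0.09 for air in Snx5-/- lungs, and with neqc it was -0.11 after the air test, so its sign after the air test depends on the filter. Leaving out 1 array gave 0.21 to 0.35 without air, -0.18 to -0.05 after the air test and -0.39 to -0.17 for the interaction. No called member changed sign. Counts over all genes moved by more than 1.5 times as well, for example without air to 228 with the intensities under their own labels, 155 with the unadjusted t-test, 20 with the arrays of the comparison alone and 0 with the adjusted t-test. The cause was not tested. Same-numbered arrays did not deviate together in all pairs of groups (correlations from -0.23 to 0.28), so the numbers were not used as pairs. Array positions on slides were not used, since no header gives them. Col4a1 lies near the array maximum, where differences in intensity can be compressed, and this was not tested.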
